A study of Homo sapiens with 4 samples.

Results

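The genes described here are 41 regulators of chromatin: subunits of the SWI/SNF remodelling complexes, enzymes that write, read or erase histone marks, and enzymes that add or remove DNA methylation. They were listed by name, with their signals on these arrays in view, and each was represented by its brightest probe set with a single gene symbol, chosen by the mean log2 signal over the 4 arrays. Such a probe set was found for 40 of the 41, and 38 passed a filter on low signals, against 13180 of 19775 genes in the whole series. NCOR1 was not analysed here, and TET1 and TET2 lay under the filter. The genes were measured in HCCLM3, a human hepatocellular carcinoma line, in 4 groups of 1 array each, and all cells had been sorted magnetically for EpCAM, a cell-surface adhesion molecule of epithelia. A miR-429 mimic, or a mimic used as negative control (NC mimic), was transfected at 100 nM into the EpCAM-negative fraction. The EpCAM-positive fraction had antagomir-429, a cholesterol-conjugated blocker of miR-429, or its control (NC antagomir) added at 40 µM. All cells were treated for 4 days, and the series was made to search for targets of miR-429. The sort and the kind of reagent changed together, so EpCAM status and the type of reagent cannot be told apart between the 2 pairs.

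SWI/SNF complexes use ATP to slide or evict nucleosomes, and their assemblies differ by the subunits they carry: ARID1A or ARID1B in canonical BAF, ARID2, PBRM1 and BRD7 in PBAF, and BRD9 in the non-canonical form. The KMT2 and SETD1 enzymes methylate lysine 4 of histone H3 at enhancers and promoters, NSD1 and SETD2 methylate lysine 36, CREBBP and EP300 acetylate histones, and the KDM enzymes remove methyl groups. TET enzymes oxidise methylated cytosine, the first step of its removal, and DNMT3A and DNMT3B place new methyl marks. Several of these genes, ARID1A and ARID2 among them, are recurrently mutated in liver cancer.

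The mature sequence of the microRNA that was supplied or blocked is shown with its relatives, because its seed (bases 2 to 8, in capitals) is the main part by which a microRNA pairs with its target messages. Sequences are from RefSeq (GRCh38.p14), 5′ to 3′. The miR-429 locus lies at chr1:1169055-1169076 on the plus strand. The first 3 share 1 seed, and the last 2 share another that differs from it.
hsa-miR-429: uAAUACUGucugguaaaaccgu
hsa-miR-200b-3p: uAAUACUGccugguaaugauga
hsa-miR-200c-3p: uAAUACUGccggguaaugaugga
hsa-miR-200a-3p: uAACACUGucugguaacgaugu
hsa-miR-141-3p: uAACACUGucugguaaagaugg

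Signals are MAS5 values, and the filter was a mean log2 signal of 5.73, which is a signal of 52.9. Differences are log2 ratios between single arrays, so none of them has a replicate check, the number of arrays limits the precision, and no p-value is given. The spread of the log2 ratio over all genes gives a sense of scale. With the filtered genes in 4 equal bins by signal, its robust SD with the mimic was 0.82 in the dimmest bin, which held 2 members, and 0.53, 0.46 and 0.36 in the others, which held 11, 16 and 9. With the antagomir it was 0.79, 0.41, 0.26 and 0.15. EPCAM did not follow the sort labels over the 4 arrays. Its highest signal, 3838, was on the miR-429 mimic array, whose cells were sorted as EpCAM-negative, beside 1106 for the NC mimic. It read 913 for antagomir-429 and 1235 for the NC antagomir, so only the 2 controls kept the order of the labels, by a small margin. EpCAM-negative and EpCAM-positive are therefore used here as the labels' names. KRT8 and KRT18, keratins of simple epithelia, were bright on all arrays, AFP had signals between 91.5 and 119, and the biliary keratin KRT19 and albumin (ALB) were under the filter. In bulk RNA, fewer cells of a type and less RNA per cell cannot be told apart.

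Across the module, the array of EpCAM-negative cells with the NC mimic stood lowest. It was the lowest of the 4 arrays for 22 of 38 members (57.9%), against 27.8% of all genes past the filter, and the highest for 6 members (15.8%), against 29.6% of all genes. The miR-429 mimic array was the lowest for 6 of 38 members, against 3772 of 13180 genes past the filter. For antagomir-429 the counts were 6 members and 2913 genes, and for the NC antagomir 4 members and 2830 genes. The log2 ratio of the lowest of the other 3 arrays over the NC mimic array had a median of 0.17 over members and -0.26 over all genes. The 38 members were listed with earlier results of these arrays known, so these counts describe the list.

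**Figure D1:**
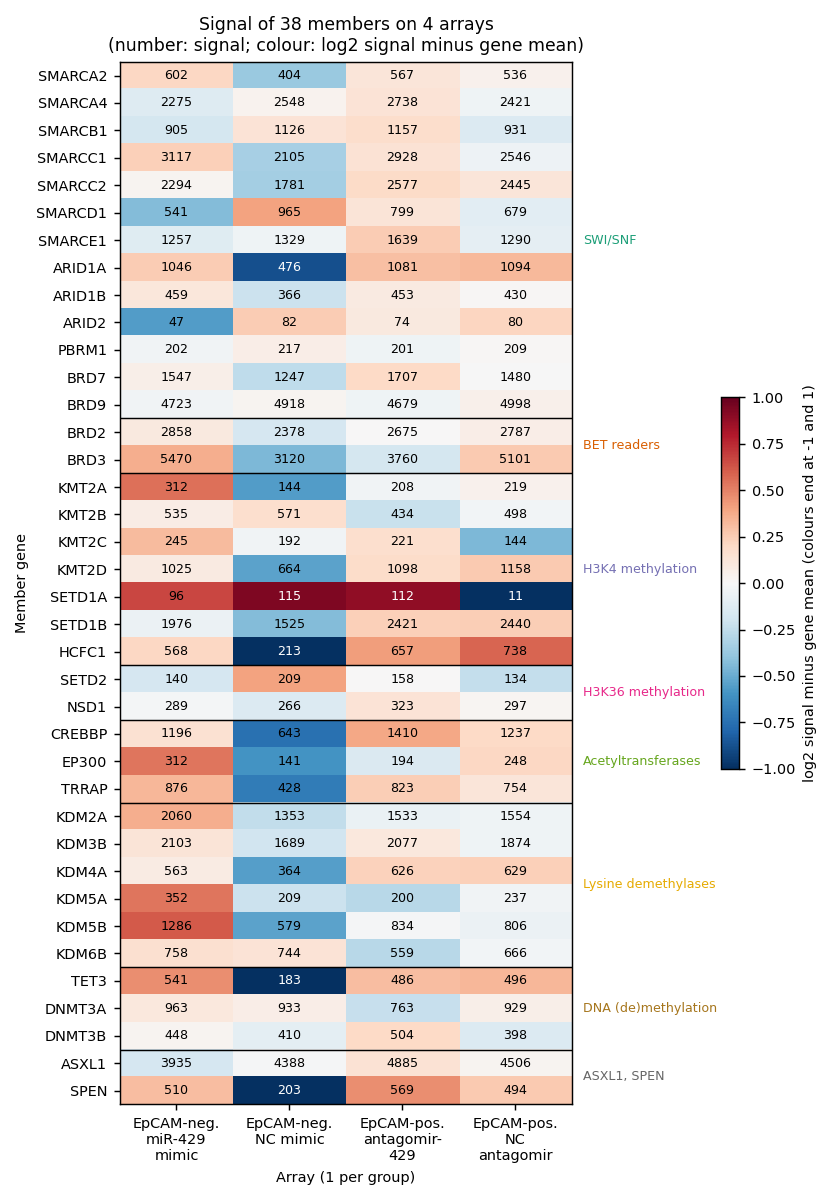
Signals of the 38 members past the filter (rows, grouped by class) on the 4 arrays (columns). Each cell prints the signal, and its colour is the log2 signal minus that gene's mean over the 4 arrays. The NC mimic column is the bluest, with HCFC1 at 213, TET3 at 183 and SPEN at 203, while SETD1A is low in the NC antagomir column (11).

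With the miR-429 mimic, 8 of 38 members were at least 2-fold higher than with the NC mimic, against 5.25% of all genes past the filter, and 0 of 38 were at least 2-fold lower, against 3.76%. The 8 were HCFC1, TET3, SPEN, ARID1A, KDM5B, EP300, KMT2A and TRRAP. Over all 38, 27 ratios were above 0 and the median log2 ratio was 0.34, while the median over all genes was -0.002. With the NC antagomir array as the control instead, the median over members was 0.06. As measured, 1 member, SETD1A, was past 2-fold there, but its NC antagomir signal (10.8) was under the filter level. Centring each array on its median moved the median of all genes in this comparison to -0.11 and that of the members to 0.23, and KDM6B and DNMT3A then turned negative. With antagomir-429, 1 member was at least 2-fold higher than with the NC antagomir, against 3.72% of all genes, and 0 were lower, against 3.53%. The median log2 ratio there was 0.06, with 20 members above 0 and 18 below. Between the controls, 4 members (HCFC1, TET3, SPEN and ARID1A) were at least 2-fold higher on the EpCAM-positive NC antagomir array than on the EpCAM-negative NC mimic array, against 3.62% of all genes. SETD1A was the 1 member at least 2-fold lower, against 4.7%. The first and the last of these comparisons share the NC mimic array, and the last 2 share the NC antagomir array.

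**Figure D2:**
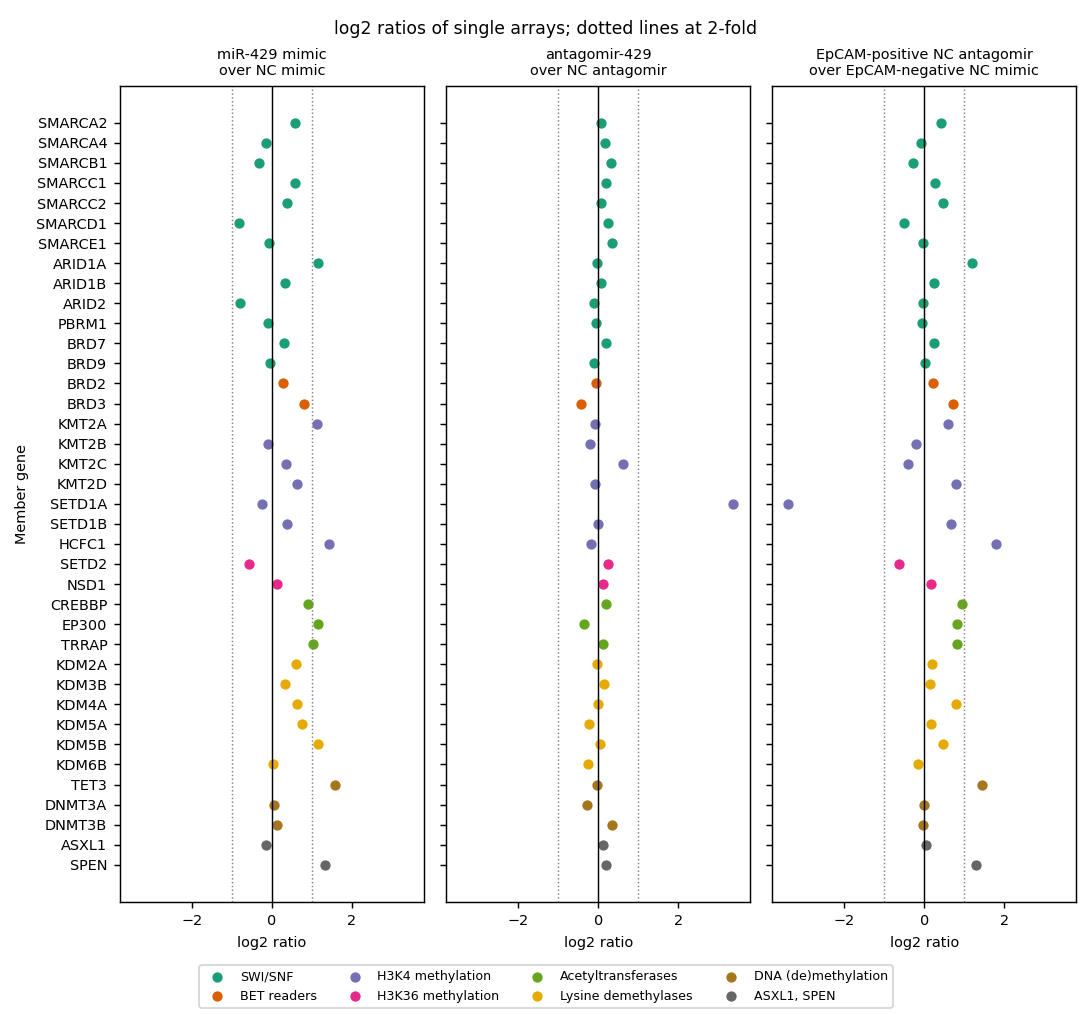
Log2 ratios of the 38 members in the 3 comparisons, coloured by class. Each point is a ratio of 2 single arrays, and dotted lines mark 2-fold. Ratios of the mimic pair spread from -0.83 to 1.56 and most lie right of 0, whereas those of the antagomir pair lie within -0.44 and 0.62 except for SETD1A.

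A member was counted as low only on the NC mimic array when its signal there was at most 1/2 of the lowest of the other 3 arrays and those 3 were above the filter level. The signals themselves chose these genes, so their values are given as a description. They were 4 of 38 members: HCFC1, TET3, SPEN and ARID1A. Of all genes past the filter, 1.7% met this rule. The same rule found 0 members low only on the miR-429 mimic array (1.22% of all genes), 0 low only on the antagomir-429 array (1.49%) and 1, SETD1A, low only on the NC antagomir array (1.53%). At 1.5-fold in place of 2-fold the NC mimic count was 8 of 38, against 4.49% of all genes.

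HCFC1, a host-cell factor that tethers SETD1 and other chromatin enzymes to transcription factors, read 568 with the miR-429 mimic, 213 with the NC mimic, 657 with antagomir-429 and 738 on the NC antagomir array. The lowest of the other 3 arrays was 2.67-fold above the NC mimic array. TET3, a DNA dioxygenase, read 541 (miR-429 mimic), 183 (NC mimic), 486 (antagomir-429) and 496 (NC antagomir), 2.65-fold above it. SPEN, a large RNA-binding corepressor that recruits histone deacetylation, read 510 (miR-429 mimic), 203 (NC mimic), 569 (antagomir-429) and 494 (NC antagomir), or 2.44-fold. ARID1A, the DNA-binding subunit of canonical BAF, read 1046 (miR-429 mimic), 476 (NC mimic), 1081 (antagomir-429) and 1094 (NC antagomir), or 2.20-fold. In these 4 genes the 3 other arrays lay close together and only the NC mimic array was low. The antagomir pair differed little, with log2 ratios of -0.17 for HCFC1, -0.03 for TET3, 0.20 for SPEN and -0.02 for ARID1A.

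Just outside the limit lay CREBBP, at 1196 with the miR-429 mimic, 643 with the NC mimic, 1410 with antagomir-429 and 1237 on the NC antagomir array, where the lowest of the others was 1.86-fold above the NC mimic array. TRRAP followed at 1.76-fold, and KDM4A and KMT2D at 1.55-fold and 1.54-fold. The 4 inside it ran from 2.20-fold (ARID1A) to 2.67-fold (HCFC1). KMT2A, KDM5B and EP300 were past 2-fold in the mimic pair but had antagomir-pair signals between those of the mimic pair, so they were not low on the NC mimic array alone by this rule.

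**Figure D3:**
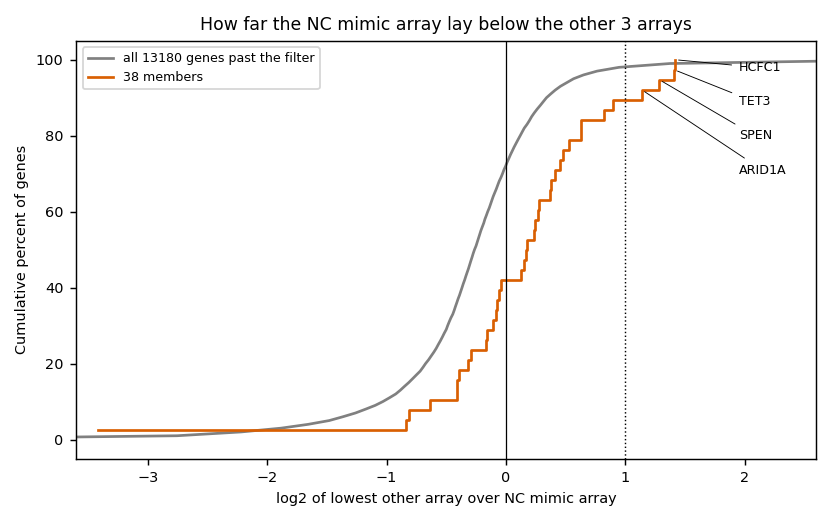
Cumulative distribution of the log2 ratio of the lowest other array over the NC mimic array, for all genes past the filter (grey) and for the 38 members (orange). Values right of 0 mean that the NC mimic array was the lowest of the 4, and the dotted line marks 2-fold. The members' curve lies to the right of that of all genes over most of the range, and HCFC1, TET3, SPEN and ARID1A lie beyond the dotted line.

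The promoters of the genes low only on the NC mimic array are shown because these 4 shared a low NC mimic signal, and the RefSeq table (GRCh38.p14) held 3 of them, and 35 of the 41 genes in all. Each window runs from 250 bases before to 50 after the most upstream start, 5′ to 3′ on the gene's own strand, which is plus for all 3. TET3 lies at chr2:73984660-73984959, SPEN at chr1:15847457-15847756 and ARID1A at chr1:26695765-26696064. Capitals mark matches to the motifs searched.
TET3: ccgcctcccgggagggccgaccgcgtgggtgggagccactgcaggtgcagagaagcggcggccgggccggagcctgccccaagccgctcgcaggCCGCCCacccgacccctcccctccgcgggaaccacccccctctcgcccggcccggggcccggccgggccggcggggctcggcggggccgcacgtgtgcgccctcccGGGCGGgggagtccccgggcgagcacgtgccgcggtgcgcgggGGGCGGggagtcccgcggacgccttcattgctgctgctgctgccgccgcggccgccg
SPEN: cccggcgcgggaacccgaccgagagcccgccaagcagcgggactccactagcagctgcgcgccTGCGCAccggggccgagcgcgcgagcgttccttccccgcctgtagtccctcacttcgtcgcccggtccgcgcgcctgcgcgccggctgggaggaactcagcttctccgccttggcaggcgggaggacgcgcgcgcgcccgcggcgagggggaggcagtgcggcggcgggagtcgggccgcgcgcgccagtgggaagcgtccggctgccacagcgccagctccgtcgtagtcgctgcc
ARID1A: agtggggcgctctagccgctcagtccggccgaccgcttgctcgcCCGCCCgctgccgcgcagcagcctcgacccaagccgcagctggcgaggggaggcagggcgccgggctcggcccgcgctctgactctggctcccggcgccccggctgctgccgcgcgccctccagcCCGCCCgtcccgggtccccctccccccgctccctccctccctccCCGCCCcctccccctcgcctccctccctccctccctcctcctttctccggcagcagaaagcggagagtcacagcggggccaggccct

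Motifs were searched as exact letters on both strands: the GC box GGGCGG, the CCAAT box CCAAT, an ETS core CCGGAAG, an NRF1-type site TGCGCA, a YY1 core AAGATGG, the cAMP response element TGACGTCA and the TATA box TATAAA. No motif contains another. The TET3 and ARID1A windows held 3 GC boxes each and the SPEN window 1 NRF1-type site, and none of the other motifs was in these 3 windows. Over the members, 71.4% of 35 promoters held a GC box, against 44.5% of 27305 genes in the table. Genes in that table were not limited to those past the signal filter, so this background differs from the one used for signals. The shares were 20.0% and 35.7% for CCAAT, 14.3% and 10.6% for the ETS core, 17.1% and 8.45% for the NRF1-type site and 11.4% and 6.03% for the YY1 core. A TATA box was in 0 of 35 members' windows and 12.0% of all, and the cAMP response element in 0 of 35 and 1.97%. The members' windows were also rich in CpG, with a median of 30 CpG dinucleotides (45 for TET3, 50 for SPEN, 33 for ARID1A). Over all genes in the same unfiltered table the median was 13. A match is a run of letters and says nothing about binding.

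The 13 SWI/SNF subunits did not share a direction. With the mimic 6 were above 0 and 7 below, with a median log2 ratio of -0.06, and ARID1A was the only one past 2-fold. The ATPase SMARCA4 (BRG1) varied little, at 2275 with the miR-429 mimic, 2548 with the NC mimic, 2738 with antagomir-429 and 2421 on the NC antagomir array. Its 6 other probe sets past the filter had mimic log2 ratios from -0.06 to 0.31. The alternative ATPase SMARCA2 (BRM) read 602 (miR-429 mimic), 404 (NC mimic), 567 (antagomir-429) and 536 (NC antagomir), a mimic log2 ratio of 0.57. Its 4 other probe sets past the filter had mimic ratios of 1.22, 1.56, 2.31 and -0.25, and the NC mimic signal of the one at 2.31 was under the filter level (19.3). SMARCA2 thus had its lowest signal with the NC mimic in 4 of 5 probe sets past the filter.

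Among the core subunits, the scaffolds SMARCC1 (BAF155) and SMARCC2 (BAF170) were lowest with the NC mimic in their brightest probe sets. SMARCC1 read 3117 with the miR-429 mimic, 2105 with the NC mimic, 2928 with antagomir-429 and 2546 on the NC antagomir array. SMARCC2 read 2294 (miR-429 mimic), 1781 (NC mimic), 2577 (antagomir-429) and 2445 (NC antagomir). The 3 other SMARCC1 probe sets past the filter had mimic log2 ratios of 0.94, 0.74 and 0.59, whereas both others of SMARCC2 had the opposite sign (-0.41 and -0.43) and were highest with the NC mimic. SMARCD1 (BAF60A) lay the other way, at 541 with the miR-429 mimic, 965 with the NC mimic, 799 with antagomir-429 and 679 on the NC antagomir array. Its mimic log2 ratio of -0.83 was the most negative of the 38 brightest probe sets past the filter, but its other probe set past the filter had 0.38, and -1.94 in the antagomir pair with antagomir-429 under the filter level. SMARCB1 (SNF5), the subunit lost in rhabdoid tumours, read 905 (miR-429 mimic), 1126 (NC mimic), 1157 (antagomir-429) and 931 (NC antagomir), and SMARCE1 (BAF57) read 1257 (miR-429 mimic), 1329 (NC mimic), 1639 (antagomir-429) and 1290 (NC antagomir). In both, the miR-429 mimic array was the lowest and the antagomir-429 array the highest. The brightest of the 3 other SMARCE1 probe sets past the filter differed, at 1185 (miR-429 mimic), 861 (NC mimic), 1219 (antagomir-429) and 1109 (NC antagomir), a mimic ratio of 0.46. The rest were dim, with mimic ratios of -1.34 and 0.88 as measured and arrays under the filter level. In the SMARCE1 probe set at -1.34 the antagomir ratio was -1.41.

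Of the subunits that define each assembly, ARID1B, the paralog of ARID1A, read 459 with the miR-429 mimic, 366 with the NC mimic, 453 with antagomir-429 and 430 on the NC antagomir array, a mimic log2 ratio of 0.33 where ARID1A had 1.14. That contrast holds for the brightest probe sets only. The other ARID1A probe set past the filter had -0.14, and the 4 others of ARID1B had 0.10 to 0.40. The PBAF subunit ARID2 was dim, at 46.9 with the miR-429 mimic, 82.4 with the NC mimic, 74.2 with antagomir-429 and 80.2 on the NC antagomir array, at least 1.6-fold lower with the miR-429 mimic, which was under the filter level. Its probe sets opposed each other, since the next one gave 107 for the miR-429 mimic but 9.27 for the NC mimic. PBRM1, which carries a row of bromodomains, lay between 201 and 217 on all arrays, while its other probe set past the filter gave 15.2 for the miR-429 mimic but 69.5 for the NC mimic. BRD7, also of PBAF, had a mimic ratio of 0.31 and BRD9, of non-canonical BAF, -0.06. BRD9 read 4723 (miR-429 mimic), 4918 (NC mimic), 4679 (antagomir-429) and 4998 (NC antagomir). With antagomir-429, 9 of the 13 SWI/SNF subunits were above 0, all between -0.11 and 0.35. SMARCE1 (0.35) and SMARCB1 (0.31) had the highest of these, beside a robust SD of 0.26 over all genes of their signal bin.

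The BET proteins BRD2 and BRD3 bind acetylated histones and recruit the transcription machinery. BRD3 read 5470 with the miR-429 mimic, 3120 with the NC mimic, 3760 with antagomir-429 and 5101 on the NC antagomir array. It was high on 1 array of each pair, with log2 ratios of 0.81 for the mimic and -0.44 for the antagomir, the most negative antagomir ratio among the 38 members past the filter. A further BRD3 probe set past the filter gave 0.42 and -0.20. BRD2 differed less, at 2858 (miR-429 mimic), 2378 (NC mimic), 2675 (antagomir-429) and 2787 (NC antagomir).

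Of the 7 genes of lysine 4 methylation, 5 were above 0 with the mimic (median 0.37). KMT2A (MLL1) read 312 with the miR-429 mimic, 144 with the NC mimic, 208 with antagomir-429 and 219 on the NC antagomir array, a mimic log2 ratio of 1.11. Its 3 other probe sets past the filter had -0.32, 1.34 and 2.01 as measured, each with its NC mimic signal under the filter level. KMT2D (MLL4), an enhancer enzyme, read 1025 (miR-429 mimic), 664 (NC mimic), 1098 (antagomir-429) and 1158 (NC antagomir), a ratio of 0.63, but its next probe sets gave -0.14 and -0.06. Its paralog KMT2C read 245 (miR-429 mimic), 192 (NC mimic), 221 (antagomir-429) and 144 (NC antagomir), with ratios of 0.35 with the mimic and 0.62 with the antagomir. Its 3 other probe sets past the filter had positive mimic ratios and negative antagomir ratios. KMT2B had -0.09 and -0.20.

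SETD1B, the catalytic subunit of one SET1 complex, read 1976 with the miR-429 mimic, 1525 with the NC mimic, 2421 with antagomir-429 and 2440 on the NC antagomir array, so that the EpCAM-positive arrays were the higher ones. SETD1A, its paralog, read 96.4 (miR-429 mimic), 115 (NC mimic), 112 (antagomir-429) and 10.8 (NC antagomir). Only the NC antagomir array was low, and it lay under the filter level, so the antagomir-429 array was at least 2.1-fold higher than the NC antagomir array, which was itself at least 2.2-fold lower than the NC mimic array. SETD1A had a single probe set, and the as-measured log2 ratio of 3.37 depends on a signal too dim to measure.

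The lysine 36 enzymes differed from each other. SETD2, which trimethylates lysine 36 in gene bodies, read 140 with the miR-429 mimic, 209 with the NC mimic, 158 with antagomir-429 and 134 on the NC antagomir array. The NC mimic array was the high one, the reverse of most members, and the 2 further SETD2 probe sets also had negative mimic ratios (-0.80 and -0.71). In the SETD2 probe set at -0.71 the miR-429 mimic signal was under the filter level (43.0). There antagomir-429 was the highest array (108), not the NC mimic. NSD1 was nearly level, at 289 (miR-429 mimic), 266 (NC mimic), 323 (antagomir-429) and 297 (NC antagomir), but its 3 other probe sets past the filter had mimic ratios of 0.81, -0.89 and -0.44.

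The 3 genes of histone acetylation were all lowest with the NC mimic, and their median mimic log2 ratio of 1.03 was the highest of the 8 classes. EP300 (p300) read 312 with the miR-429 mimic, 141 with the NC mimic, 194 with antagomir-429 and 248 on the NC antagomir array, a mimic ratio of 1.14. Its other probe set gave 0.56. TRRAP, the scaffold of several acetyltransferase complexes, read 876 (miR-429 mimic), 428 (NC mimic), 823 (antagomir-429) and 754 (NC antagomir), a ratio of 1.03, and its other probe set gave 1.07. CREBBP (CBP), with the values given above, had a ratio of 0.90, but its next probe set, at 27.2 for the miR-429 mimic but 112 for the NC mimic, opposed it. Between the controls, the 3 ratios lay between 0.81 and 0.94, with the NC antagomir array higher than the NC mimic array. With antagomir-429, EP300 had -0.36, TRRAP 0.13 and CREBBP 0.19.

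The 6 lysine demethylases were all above 0 with the mimic under the deposited scaling (median 0.62), and KDM6B (0.03) turned negative under median centring. KDM5B, a lysine 4 demethylase often high in tumours, read 1286 with the miR-429 mimic, 579 with the NC mimic, 834 with antagomir-429 and 806 on the NC antagomir array. The miR-429 mimic array was the highest and the NC mimic array the lowest. Its next probe sets gave mimic log2 ratios of 1.10 and 0.90 beside the 1.15 of the brightest. The KDM5B probe set at 0.90 read 1107 (miR-429 mimic), 593 (NC mimic), 791 (antagomir-429) and 476 (NC antagomir). There the NC antagomir array was the lowest, and the antagomir ratio was 0.73 against 0.05 in the brightest KDM5B probe set. KDM5A, its paralog, was high with the miR-429 mimic alone, at 352 against 209 with the NC mimic, 200 with antagomir-429 and 237 on the NC antagomir array, but its other probe sets past the filter had mimic ratios of 0.05 and -0.58. KDM2A, a lysine 36 demethylase that binds unmethylated CpG, read 2060 (miR-429 mimic), 1353 (NC mimic), 1533 (antagomir-429) and 1554 (NC antagomir), and the lysine 9 demethylase KDM3B read 2103 (miR-429 mimic), 1689 (NC mimic), 2077 (antagomir-429) and 1874 (NC antagomir). The other KDM2A probe sets past the filter had mimic ratios of 1.38 and -0.43, and that of KDM3B had 0.66. KDM4A read 563 (miR-429 mimic), 364 (NC mimic), 626 (antagomir-429) and 629 (NC antagomir), with the NC mimic array the lowest but outside the 2-fold limit, while its other probe set gave a mimic ratio of 0.15. KDM6B, which removes lysine 27 methylation, read 758 (miR-429 mimic), 744 (NC mimic), 559 (antagomir-429) and 666 (NC antagomir). Its antagomir ratio was -0.25, and its 3 other probe sets past the filter had -0.94, -0.35 and -2.30. In the last of these the antagomir-429 signal was under the filter level (24.9). Their mimic ratios were -0.37, 0.10 and 0.63.

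Of the DNA methylation enzymes, TET3 alone was past 2-fold in its brightest probe set, with 1.44 between the controls. Its mimic log2 ratio of 1.56 was the highest among the members' brightest probe sets past the filter. The other TET3 probe set past the filter was dim, with 0.16 in the mimic pair and 1.07 between the controls. TET1 and TET2 were too dim to pass the filter. TET1 read 70.2 with the miR-429 mimic, 32.2 with the NC mimic, 60.6 with antagomir-429 and 34.3 on the NC antagomir array, so both control arrays were under the filter level. It was at least 1.3-fold higher with the miR-429 mimic than with the NC mimic, as a bound from the filter level. TET2 read 56.6 (miR-429 mimic), 70.8 (NC mimic), 3.97 (antagomir-429) and 51.7 (NC antagomir). The de novo methyltransferases differed little in the mimic pair: DNMT3A read 963 for the miR-429 mimic against 933 for the NC mimic (0.05), and DNMT3B 448 for the miR-429 mimic against 410 for the NC mimic (0.13). In the antagomir pair DNMT3A read 763 for antagomir-429 against 929 for the NC antagomir (-0.28), and DNMT3B 504 for antagomir-429 against 398 for the NC antagomir (0.34). The other DNMT3A probe sets past the filter had mimic ratios of 0.30 and -0.38.

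ASXL1, a cofactor of the BAP1 deubiquitinase that removes ubiquitin from histone H2A, read 3935 with the miR-429 mimic, 4388 with the NC mimic, 4885 with antagomir-429 and 4506 on the NC antagomir array, with no array apart from the rest in this brightest probe set. Its 5 other probe sets past the filter had mimic log2 ratios from 0.01 to 1.02. The one at 1.02 read 671 (miR-429 mimic), 331 (NC mimic), 664 (antagomir-429) and 638 (NC antagomir), and the NC mimic array was also the lowest in 3 more. SPEN had 3 further probe sets past the filter, of which 2 had mimic log2 ratios of 1.32 and 1.42 beside the 1.33 of the brightest, and 1 had -0.38. In the probe set at 1.42 the NC mimic signal was under the filter level (36.7).

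The probe sets of a gene, which sample different stretches of its transcripts, often disagreed in sign, so a member's ratio depends on the probe set chosen. The 40 genes had 154 probe sets. Of the 38 members past the filter, 31 had at least 1 other probe set past it, 70 in all, and 41 of these 70 had the sign of the brightest in the mimic pair, 36 in the antagomir pair and 36 between the controls. In the mimic pair 12 of the 70 were at least 2-fold higher as measured and 3 lower, with a median log2 ratio of 0.27. The members low only on the NC mimic array differed in this respect. SPEN had accord in 2 of 3 others. ARID1A had a second probe set of similar brightness, at 766 with the miR-429 mimic, 845 with the NC mimic, 753 with antagomir-429 and 673 on the NC antagomir array, in which the NC mimic array was not low. TET3 had a second at 63.4 (miR-429 mimic), 56.6 (NC mimic), 41.1 (antagomir-429) and 119 (NC antagomir), near the filter level, and both others of HCFC1 were under it. With the median over probe sets, 0 of the 33 members past the filter were low only on the NC mimic array, and TRRAP was the 1 member at least 2-fold higher with the mimic. With the second-brightest probe set, 2 of 31 were low only there, ARID2 and KDM2A.

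**Figure D4:**
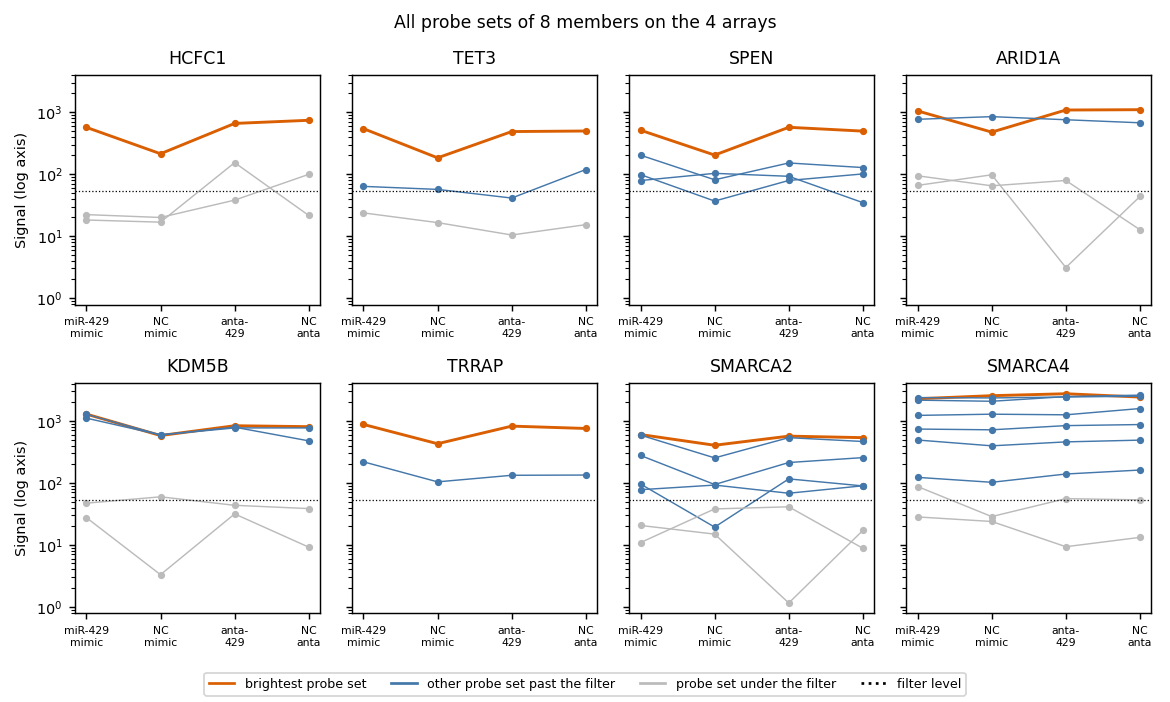
Signals (log axis) of every probe set of 8 members on the miR-429 mimic, NC mimic, antagomir-429 (anta-429) and NC antagomir (NC anta) arrays. The brightest probe set is orange, others past the filter are blue, those under it are grey, and the dotted line is the filter level of 52.9. The dip on the NC mimic array recurs in the 2 brightest KDM5B probe sets and both of TRRAP, is missing from the second ARID1A probe set, and the bright SMARCA4 probe sets are nearly flat.

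The members were long genes. The median span of the members on the genome (RefSeq, GRCh38.p14) was 85.2 kb, against 26.9 kb over all genes past the filter, and 19 of 38 members lay in the longest of 5 equal span bins. In that bin the mimic log2 ratio had a median of 0.57 over those 19 members and 0.22 over all 2633 genes. There 6 of the 19 were past 2-fold upward in the mimic pair, against 9.76% of all genes in the bin, and 3 were low only on the NC mimic array, against 2.66%. The 10 members of the next bin had a median of 0.35, against 0.11 over all genes. The 7 members of the middle bin had -0.06, against -0.02. Across the 38 members, Spearman's rho between span and the mimic log2 ratio was 0.18, and over all genes 0.24. Genes share arrays and are not independent, so these are descriptions.

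**Figure D5:**
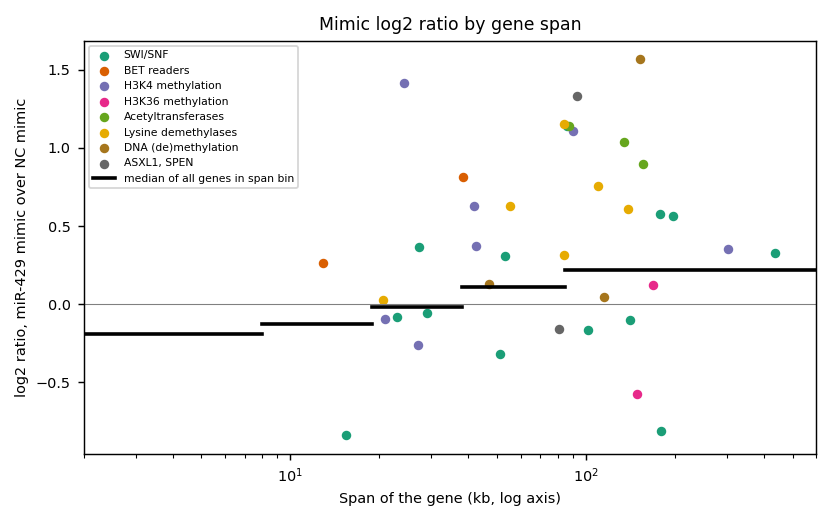
Mimic log2 ratio of each member (points, coloured by class) against the span of its gene in kb on a log axis. Black lines are medians over all genes past the filter in 5 equal span bins, and the first and last run beyond the axis. Members of the longest bin scatter from -0.81 to 1.56 around a line at 0.22.

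Probe sets for added control RNAs placed the mimic pair at the 2 ends. Those of the poly-A transcripts added before labelling (24 probe sets) had median log2 signals of 10.6 for the miR-429 mimic, 11.6 for the NC mimic, 11.2 for antagomir-429 and 11.1 for the NC antagomir. The 18 hybridisation controls had 12.3 (miR-429 mimic), 12.7 (NC mimic), 12.5 (antagomir-429) and 12.4 (NC antagomir). The 3′ to 5′ signal ratio of actin, which is higher where label is concentrated near the 3′ end, was 2.63 (miR-429 mimic), 3.41 (NC mimic), 3.07 (antagomir-429) and 3.12 (NC antagomir), and that of GAPDH lay between 0.900 and 0.922. The miR-429 mimic array thus had the lowest spike-ins and actin ratio, and the NC mimic array, on which most members were lowest, had the highest, with both antagomir arrays between them. The part of these differences, and of gene span, in the members' values was not tested. Markers of endothelium and stroma, 4 of 4 past the filter, summed to 7868 (miR-429 mimic), 7422 (NC mimic), 8007 (antagomir-429) and 10801 (NC antagomir). COL1A1 made up most of each sum, at 7404 (miR-429 mimic), 7162 (NC mimic), 7633 (antagomir-429) and 10500 (NC antagomir). The rest were dim: PECAM1 and VWF were highest with the miR-429 mimic (234 and 126), and PDGFRB on the NC antagomir array (116). Of the leukocyte markers CD3E, LYZ and PTPRC, only CD3E passed it, none was at 0, and they summed to 185 (miR-429 mimic), 98.6 (NC mimic), 102 (antagomir-429) and 126 (NC antagomir). CD68 was not analysed here. The part of these markers in the members' values was not tested.

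Other genes of the same pathways were taken from lists put together by function. Among 14 further SWI/SNF subunits past the filter, 0 were past 2-fold in any of the 3 comparisons, and the median mimic log2 ratio was 0.07. BCL7A, an accessory subunit, had the largest mimic ratio (0.72). Shared subunits of the lysine 4 complexes had a median of 0.22 over 13 genes, with 2 at least 2-fold higher and 0 lower. These were NCOA6, at 2353 with the miR-429 mimic, 1108 with the NC mimic, 2279 with antagomir-429 and 1981 on the NC antagomir array, and PAXIP1, at 832 (miR-429 mimic), 398 (NC mimic), 653 (antagomir-429) and 625 (NC antagomir), both partners of KMT2C and KMT2D. In both, the NC mimic array was the low one.

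Other acetyltransferases had a median mimic ratio of 0.32 over 9 genes, and 2 were past 2-fold, the coactivator NCOA2 (1.41) and KAT6A (1.35). In the antagomir pair NCOA2 was higher with antagomir-429 (1.21) and NCOA1 lower (-1.02). Other lysine demethylases had a median of 0.31 over 16 genes, with 3 at least 2-fold higher in the mimic pair as measured (KDM8, KDM7A and KDM1B) and 1 lower, KDM5C, at 239 for the miR-429 mimic against 580 for the NC mimic. KDM8 was under the filter level on the NC mimic array and at least 1.9-fold higher with the miR-429 mimic. Other lysine methyltransferases had 0.19 over 17 genes with KMT5B, a lysine 20 enzyme of histone H4, past 2-fold (1.04). Genes of DNA methylation upkeep and removal had -0.02 over 10 genes with 0 past 2-fold in the 3 comparisons, the largest mimic ratio being that of the glycosylase MBD4 (0.69). In the antagomir pair these medians lay between -0.05 and 0.05 for the 6 lists.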

How the data were processed

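Total RNA of 4 samples was profiled on 3′-biased Affymetrix Human U133 Plus 2.0 arrays, 1 per group. The deposited values are log2 signals, and MAS5 is named in the submitters' processing notes, its version and target level being not given in the sources used here. On the linear scale every array had the same mean, 500.1, once 2% of values were trimmed from both ends, so the authors' scaling was kept. Of 54675 probe sets, 62 controls were set aside, 41091 others had 1 gene symbol in the platform annotation, which can be old, and 1801 had several. Entrez identifiers matched 41037 to RefSeq (GRCh38.p14), 54 did not match, and 0 symbols changed. That table gave names and gene spans only, since no build is named for the series.

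Each gene took the values of its brightest single-symbol probe set and was kept when its mean log2 signal reached the median of all 54613 non-control probe sets. Ratios, counts and medians were computed with Python 3.11.15, numpy 2.4.6 and pandas 2.3.3. The counting of genes low on 1 array was tried on simulated arrays with less noise than these and clear shifts in bright genes. That checks the code and not the counts reported here. With 1 array per group, no test was possible. A fold with 1 array under the filter level was taken against that level ("at least"). Counts of genes past 2-fold used folds as measured. The members and lists were chosen with earlier results of these data known. All members could be named, and from each related list up to 4 genes past 2-fold per comparison, or the largest where none was. The alternatives were other scalings, an offset of 16 signal units, other probe set rules, filters, a 1.5-fold limit and the other control array.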

Additional observations from a re-analysis of the deposited data

How the results depend on the processing

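Of 83 recomputed values, 57 stayed within 0.1 (medians) or 1.5 times (counts) of those reported, 26 moved and 0 medians changed sign. A count that stayed could hold other genes. With the second-brightest probe set, the 6 members past 2-fold upward in the mimic pair were ARID2, KDM2A, KDM5B, SMARCA2, SPEN and TRRAP. The 1 upward in the antagomir pair was NSD1, in place of SETD1A, as measured and with its NC antagomir signal (34.3) under the filter level. The 4 upward between the controls were ARID2, KDM2A, KMT2A and TET3. TRRAP fell short of 2-fold in the mimic pair with median centring (0.93) and quantile normalization (0.95), which left 7 members. For the mimic pair, the median of the members was 0.34, and 0.23 with median centring and 0.058 with the NC antagomir array as control. The 8 members at least 2-fold higher became 1 with the median over probe sets, 14 at 1.5-fold and 1 with that other control. The 0 at least 2-fold lower became 1 with the median over probe sets (SMARCB1), 2 with the second-brightest probe set (CREBBP and PBRM1) and 2 at 1.5-fold (ARID2 and SMARCD1). For the antagomir pair, the median of 0.06 was 0.30 with the NC mimic array as control. The 1 member higher became 0 with the stricter filter, 2 at 1.5-fold (KMT2C and SETD1A) and 5 with the NC mimic array as control (ARID1A, CREBBP, HCFC1, SPEN and TET3). The 0 lower became 1 with the median over probe sets (TET3), 3 with the second-brightest (CREBBP, SMARCD1 and TET3) and 1 with no filter (TET2). Between the controls, the median of 0.21 was 0.11 with the median over probe sets and 0.37 with the second-brightest. The 4 higher became 1 with the median over probe sets (TET3) and 12 at 1.5-fold. The 1 lower became 2 with the median over probe sets (SETD1A and SETD2), 2 with the second-brightest (NSD1 and SETD2), 0 with the stricter filter and 2 at 1.5-fold (SETD1A and SETD2). The 4 members low only on the NC mimic array became 0 with the median over probe sets, 2 with the second-brightest and 8 at 1.5-fold. They stayed HCFC1, TET3, SPEN and ARID1A with median centring, quantile normalization, the offset of 16 units, the stricter filter and no filter. The stricter filter left 30 members, the second-brightest probe set 31 and the median over probe sets 33. The cause of these shifts was not tested. No paired analysis was possible because each group held 1 array and the labels give no replicate numbers. In the brightest probe sets past the filter, SETD1A and ARID2 had arrays under the filter level, so that their ratios there are bounds. The counts under the alternatives used folds as measured. NSD1, PBRM1, CREBBP and TET2, among others, had arrays under that level in the probe sets counted. Taken against the filter level, NSD1 and PBRM1 would fall short of 2-fold.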

Other observations

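For the lists in this section, the shares of all genes past 2-fold with the mimic were 5.25% higher and 3.76% lower. Remodelling enzymes outside the SWI/SNF family had a median mimic log2 ratio of 0.19 over 17 genes past the filter. CHD8, a chromodomain remodeller, was the only one past 2-fold, at 204 with the miR-429 mimic, 99.7 with the NC mimic, 138 with antagomir-429 and 129 on the NC antagomir array. EP400, the ATPase of a TRRAP-containing complex, read 602 (miR-429 mimic), 366 (NC mimic), 650 (antagomir-429) and 644 (NC antagomir), with the NC mimic array the lowest, short of 2-fold. Bromodomain proteins and partners of ASXL1 and SPEN had a median of 0.47 over 17 genes, with 2 at least 2-fold higher. TAF1, a TFIID subunit, read 277 with the miR-429 mimic, 79.9 with the NC mimic, 140 with antagomir-429 and 110 on the NC antagomir array. ASXL2, the paralog of ASXL1, read 216 (miR-429 mimic), 75.6 (NC mimic), 162 (antagomir-429) and 173 (NC antagomir) and was low only on the NC mimic array. ASXL3 was under the filter level with antagomir-429, at least 1.3-fold lower than with the NC antagomir.

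Deacetylases and corepressor subunits had a median mimic ratio of -0.20 over 19 genes, with 12 below 0, 7 above and 0 past 2-fold, beside 6604 of all 13180 genes below 0. HDAC10 read 155 with the miR-429 mimic, 299 with the NC mimic, 143 with antagomir-429 and 158 on the NC antagomir array, with the NC mimic array the highest, short of 2-fold. HDAC11 read 113 (antagomir-429) and 136 (NC antagomir) in the EpCAM-positive pair, and 330 (miR-429 mimic) and 303 (NC mimic) in the EpCAM-negative pair. The difference between these lists and the members was not tested.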
